A study of Arabidopsis thaliana with 4 samples.

Results

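Transcripts of 6 genes were lower 5 h after dexamethasone (DEX) was sprayed on Arabidopsis thaliana rosettes that carry an inducible ORS1 construct. The genes are MYC4, a transcription factor of jasmonate signalling; JAL23, a jacalin-related lectin; DFR, an enzyme of anthocyanin synthesis; AT1G54020, a GDSL-type lipase gene; and the TRAF-like genes AT3G28220 and AT4G01390. They were chosen by name among genes already known to be lower in these arrays, so their DEX-minus-mock differences are given as a description, without a test. They are 6 of the 13356 genes with a probe set annotated to them alone. Each had exactly 1 such probe set, and all 6 passed the filter on low values, which 19883 of 22746 non-control probe sets passed. The word jasmonate belongs to the choice of genes: no sample was treated with jasmonate, and the hormone was not measured.

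Both groups were 46-day-old plants in the C24 background with the same construct for inducible overexpression of ORS1, a NAC-family transcription factor that promotes leaf senescence. The DEX group was sprayed with 30 µM DEX, a steroid that switches the construct on, and the mock group with 0.05% ethanol. Whole rosettes were harvested 5 h later, and 2 Affymetrix ATH1 arrays, called biological replicates in the labels, were measured per group. Since plants without the construct were not among the samples, effects of DEX and of ORS1 cannot be told apart. The sources used here do not give the construct's promoter, the number of transgenic lines or the number of plants per array, and p-values speak only for the spread between these samples.

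Values are log2 expression values made by the authors with GCRMA, so a difference of 1 is 2-fold. In whole rosettes, fewer cells of a type and less RNA per cell cannot be told apart. Of the 8 mesophyll markers listed, 6 were tested, at 11.48 to 13.42 on the 4 arrays, and 0 passed (limma adjusted p = 0.883 or more; 0 at an unadjusted p under 0.05). The root marker EXPA7 was at 5.72 to 5.98 and 3 guard cell regulators at 5.05 to 6.78, while vascular, trichome and floral markers had 0 tested probe sets with a single annotated gene. The differences between replicate arrays had an SD of 0.21 in the DEX pair and 0.37 in the mock pair.

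Jasmonate is a lipid-derived hormone of wounding, insect defence and fertility. Its active form is perceived by a receptor complex with COI1, which leads to the breakdown of JAZ repressors and frees the related bHLH factors MYC2, MYC3 and MYC4 to act on their target genes. In leaves those targets include genes of glucosinolate synthesis, and jasmonate is also known to raise anthocyanin synthesis. Several jacalin-related lectins are known as jasmonate-responsive or as partners of defence glucosidases in the Brassicaceae.

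MYC4, a transcription factor, measured 6.59 and 6.49 in the DEX samples, against 7.95 and 7.64 in the mock samples. Both DEX values lay below both mock values, and the higher DEX value was 1.05 log2 units below the lower mock value. The group means were 6.54 ± 0.072 after DEX and 7.80 ± 0.22 after mock (SD, n = 2 each), a log2 change of -1.26 ± 0.18 (SE), or a level 2.39-fold lower. That change was 4.12 times the largest difference between replicate arrays of this gene.

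JAL23 belongs to the jacalin-related lectins, proteins that bind sugars. It measured 8.35 and 7.99 after DEX, against 10.26 and 9.73 after mock. The groups did not overlap, although this gene had the widest mock pair of the 6, with 0.53 log2 units between replicates. Its change of -1.82 ± 0.25 (SE), 3.53-fold lower, was the largest of the group and also the one with the largest SE.

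DFR, the reductase that turns dihydroflavonols into the precursors of anthocyanins, measured 6.50 and 6.48 after DEX, against 7.80 and 7.47 after mock. The DEX pair was nearly equal, and the spread of this gene lay in the mock pair, whose SD was 0.23. Its change of -1.15 ± 0.18 (SE), 2.21-fold lower, was the smallest of the 6, and its groups were 0.97 log2 units apart at their nearest values. DFR was the only member whose nearest DEX and mock values differed by less than 1 log2 unit.

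AT1G54020 encodes a lipase of the GDSL type, a large family of esterases named after a sequence motif. Its values were 7.00 and 6.93 after DEX, against 8.50 and 8.24 after mock. All arrays of a group kept together, with 1.24 log2 units between the nearest values of the groups. The change was -1.40 ± 0.19 (SE), or 2.65-fold lower.

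The TRAF-like genes share a domain first described in animal adaptor proteins, and their function in rosettes is little known. AT3G28220 measured 6.60 and 6.30 after DEX, against 8.27 and 8.11 after mock, a change of -1.74 ± 0.19 (SE). AT4G01390 measured 6.62 and 6.72 after DEX, against 8.42 and 8.26 after mock, a change of -1.67 ± 0.18. Their levels were 3.33-fold and 3.18-fold lower. AT4G01390 had the clearest separation of the 6, with a change 10.7 times its largest difference between replicates and 1.54 log2 units between the nearest values. It was also the only member whose DEX replicate 2 was higher than DEX replicate 1.

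**Figure D1:**
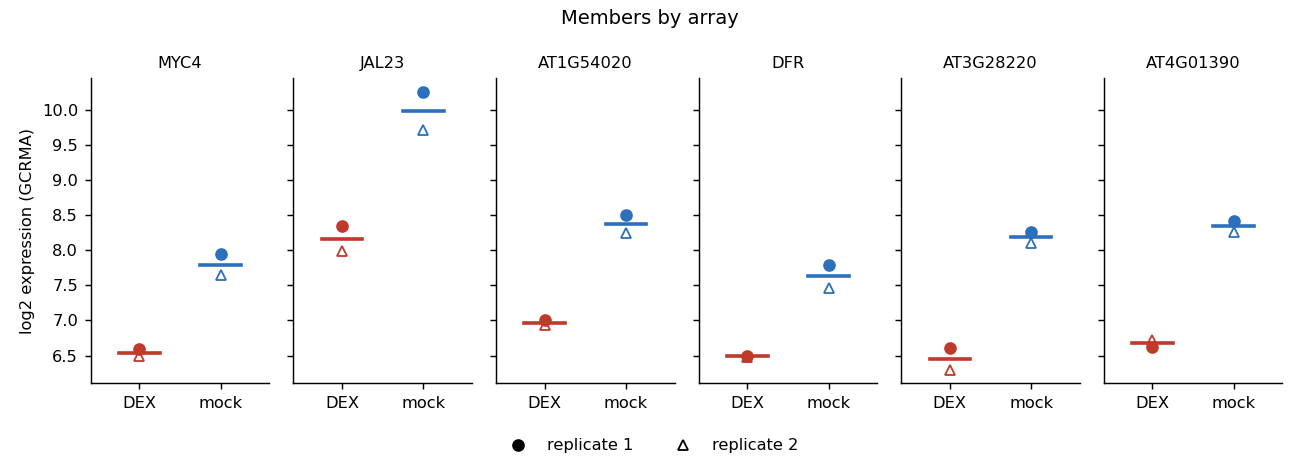
Log2 expression (GCRMA) of the 6 genes on each array, with DEX left of mock in every panel. Filled circles are replicate 1, open triangles replicate 2 and bars the mean of 2 arrays. The DEX values lie below the mock values for all 6 genes, with the smallest gap for DFR (0.97). Levels of different probe sets are not comparable with each other.

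All 6 genes were among the 40 probe sets that fell at an adjusted p under 0.05 (0.201% of 19883 tested), and their groups did not overlap, which held for 19.8% of tested probe sets with DEX lower. The genes were picked from that result, so these counts describe the choice. They also depend on the setting: DFR was no longer among the called probe sets with no filter or without DEX replicate 1, DFR and MYC4 without an intensity trend, and DFR, MYC4 and AT1G54020 without DEX replicate 2. The median change of the 6 was -1.54, against -0.012 over all tested probe sets. Counted from the largest fall, JAL23 stood at rank 12, AT3G28220 at 16, AT4G01390 at 17, AT1G54020 at 23, MYC4 at 32 and DFR at 42 of all tested probe sets. Among the 11402 with a single annotated gene, JAL23 stood at rank 2 and MYC4 at rank 11. In 5 of the 6 genes the nearest values of the groups were at least 1 log2 unit apart, a separation that 31 probe sets showed with DEX lower (0.156%).

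The order of the falls was JAL23, AT3G28220, AT4G01390, AT1G54020, MYC4 and DFR. The SEs of the differences below treat the 2 genes as independent, although both were read on the same 4 arrays. By that measure no neighbours differed by more than 2 SEs, which cannot decide whether their order is resolved. JAL23 and AT3G28220 were 0.084 log2 units apart with an SE of 0.31, and AT3G28220 and AT4G01390 were 0.069 apart with an SE of 0.26. AT4G01390 and AT1G54020, the widest step, were 0.26 apart with an SE of 0.26. AT1G54020 fell by 0.15 more than MYC4, and MYC4 by 0.11 more than DFR, both with an SE of 0.26. The ends of the order, JAL23 and DFR, were 0.68 apart with an SE of 0.30.

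Setting each DEX array against each mock array gave 4 pairings, which share arrays and are not independent. AT1G54020, MYC4 and DFR took the last 3 places, in this order, in 4 of 4 pairings. The first 3 places changed hands: JAL23 came before AT3G28220 in 2 of 4 pairings, and AT3G28220 before AT4G01390 in 2 of 4. JAL23 had the widest range, with changes of -2.27 for DEX replicate 2 minus mock replicate 1 and -1.38 for DEX replicate 1 minus mock replicate 2. AT4G01390 had the narrowest, at -1.80 to -1.54. The smallest of all 24 such differences was that of DFR at -0.97, or 1.96-fold lower.

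**Figure D2:**
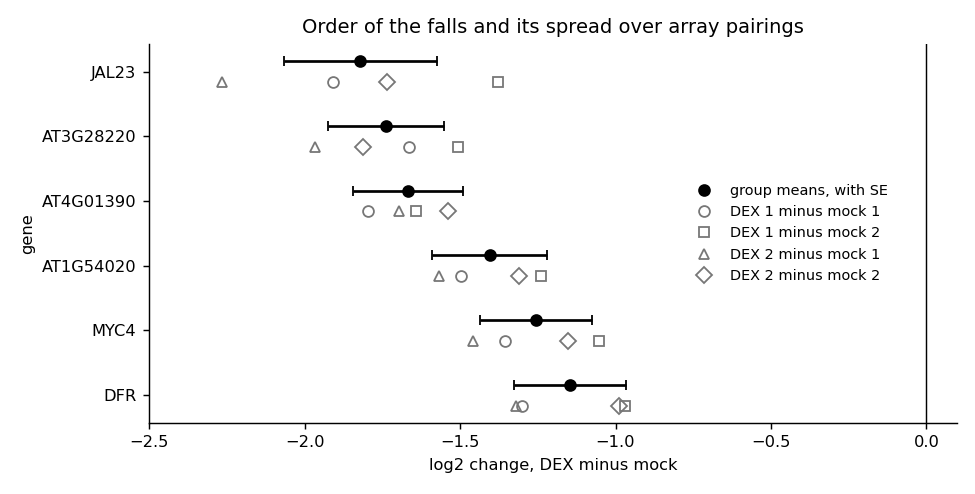
Log2 change, DEX minus mock, of the 6 genes in the order of their falls. Black points are differences of group means with their SE, and open symbols the 4 pairings of a DEX array with a mock array. JAL23 spreads from -2.27 to -1.38, across the values of both TRAF-like genes, while DFR stays between -1.32 and -0.97.

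The replicate arrays differed in much the same way for these genes. Mock replicate 1 was above mock replicate 2 in 6 of 6 genes, by 0.16 for both TRAF-like genes and by 0.26 to 0.53 for the other genes, against 54.3% of all tested probe sets. DEX replicate 1 was above DEX replicate 2 in 5 of 6, against 50.9%. The difference between the mock arrays moved with gene length across the series. Its median was -0.25 in the shortest 20% of 11284 genes and 0.27 in the longest 20%. The DEX-minus-mock change also moved with length, with medians of 0.10 in the shortest and -0.083 in the longest 20%. The members span 1396 to 2676 bases in the RefSeq annotation. The 4935 genes within that range had a median difference of -0.026 between the mock arrays and a median change of 0.018. With the length trend removed, the changes were -1.23 for MYC4, -1.76 for JAL23, -1.18 for DFR and -1.40 for AT1G54020. The TRAF-like genes were then at -1.69 for AT3G28220 and -1.80 for AT4G01390, so that AT4G01390, the shortest gene of the 6, had the largest fall.

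The profiles of the members over the 4 arrays were compared by Euclidean distance, after each gene's own mean was subtracted. The distance between MYC4 and DFR was 0.13 and that between MYC4 and AT1G54020 0.15, the smallest among the 15 pairs of members. JAL23 and DFR were the farthest apart, at 0.73. These profiles share the same 4 arrays, and a distance mixes the size of the fall with the spread of the replicates.

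Among all other tested genes with their own probe set, those nearest to MYC4 were AT1G68600 at 0.117, scpl48, a serine carboxypeptidase-like gene, at 0.119, and AT2G21560 at 0.122. AT1G68600 measured 8.64 and 8.50 after DEX, against 10.10 and 9.65 after mock. The values of scpl48 were 8.43 and 8.46 after DEX, against 9.85 and 9.46 after mock, and it was also the gene nearest to DFR, at 0.080. AT2G21560 measured 4.86 and 4.67 after DEX, against 6.07 and 5.77 after mock. All 3 had both DEX values below both mock values and a mock replicate 1 above mock replicate 2, which their choice by likeness to MYC4 on these arrays fixed.

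Of the remaining members, AT1G54020 had MYC4 as its nearest gene at 0.15, and JAL23 and AT4G01390 both had AT3G28220, at 0.28 and 0.30. AT3G28220 itself was nearest to SWEET13, a sucrose transporter gene, at 0.19. SWEET13 measured 5.55 and 5.27 after DEX, against 6.99 and 6.95 after mock, with a change of -1.56. Both genes had a DEX pair wider than their mock pair, unlike MYC4 and DFR.

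**Figure D3:**
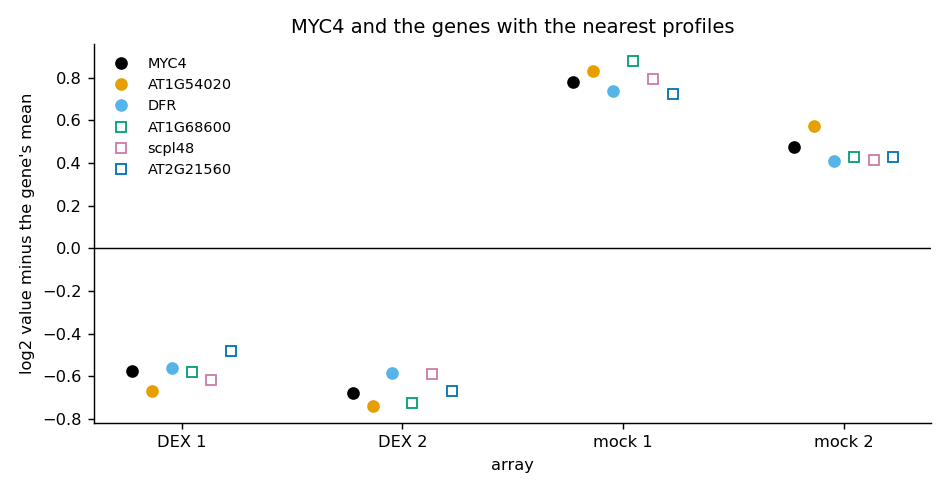
Log2 values on the 4 arrays, each minus its gene's mean, for MYC4, AT1G54020 and DFR (filled circles) and for the 3 genes with profiles nearest to MYC4 (open squares). In all 6 genes the mock arrays lie above 0, mock 1 above mock 2, and both DEX arrays below 0.

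The rest of the jasmonate pathway was described from 4 lists with 62 genes, members left out, and 9 of them were tested on a probe set of their own. None of the 9 passed (limma, 0 of 9 against 0.448% of all tested probe sets in either direction; smallest adjusted p = 0.129), and 3 had an unadjusted p under 0.05, against 8.78% of all tested. Their changes went both ways, with 4 negative values and a median of 0.017. The receptor COI1, MYC2 and the JAZ repressors were not among the 9 and were not analysed here.

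MYC3, a close relative of MYC4 that acts with it, was the 1 tested gene of the 22 in the signalling list. It measured 7.28 and 7.25 after DEX, against 8.16 and 7.90 after mock. The groups did not overlap, and the change of -0.76 ± 0.18 (SE) did not pass (limma adjusted p = 0.19). It passed with the length trend removed (limma adjusted p = 0.0452) and with a replicate block (0.0265), but not with quantile normalization or equal array medians. With the trend removed 56 of 11284 probe sets were called lower, and with the block 237 of 19883, against 40 as deposited. The block leaves little of each gene's own spread, so p-values there draw mainly on the spread pooled over probe sets. Leaving out each array gave changes of -0.89 to -0.64 for MYC3. MYC3 and MYC4 thus had values of -0.76 and -1.26 in the same direction, of which the second belongs to a gene chosen for its fall.

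OPCL1, a CoA ligase of jasmonate synthesis, was the 1 tested gene of 16 in the synthesis list. It measured 8.93 and 8.68 after DEX, against 9.20 and 8.99 after mock, a change of -0.29 ± 0.21 (SE; adjusted p = 0.753). Its groups were separated by less than the difference between its replicates.

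Of the 11 genes listed for jasmonate turnover 5 were tested, with 3 positive and 2 negative changes and a median of 0.42. AT2G38240 measured 6.87 and 6.93 after DEX, against 6.04 and 6.27 after mock. Both DEX values were higher, and the change of 0.74 ± 0.16 (SE) did not pass (limma adjusted p = 0.129). It passed with the length trend removed (limma adjusted p = 0.0337) and with a replicate block (0.00467). In those settings 73 and 438 probe sets were called higher, against 49 as deposited. It did not pass with quantile normalization or equal array medians. The p-value with the block draws mainly on the spread pooled over probe sets. Leaving out each array gave changes of 0.63 to 0.86. AT5G05600 and JRG21, which is annotated as jasmonate-regulated, had changes of 0.43 ± 0.19 and 0.42 ± 0.15 (adjusted p = 0.57 and 0.408). JMT, which methylates jasmonic acid, was at -0.18 ± 0.12 (adjusted p = 0.732).

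Classical response genes of the pathway were represented by the defensin gene PDF1.2 and the thionin gene THI2.1, 2 of 13 listed. PDF1.2 measured 5.87 and 5.94 after DEX, against 5.17 and 5.93 after mock, and THI2.1 measured 5.17 and 5.06 after DEX, against 4.89 and 5.30 after mock. The groups overlapped for both genes, with changes of 0.36 ± 0.23 and 0.017 ± 0.16 (SE; adjusted p = 0.727 and 0.995). PDF1.2 was at -0.024 without mock replicate 1 and at 0.73 without mock replicate 2. It passed in none of the settings run on it that kept all arrays.

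DFR is a step of the anthocyanin pathway, for which 6 of 19 other listed genes were tested. All 6 had negative changes, from -1.17 to -0.032 with a median of -0.31, against a median of -0.012 over all tested probe sets. Of the 6, 0 passed (limma, smallest adjusted p = 0.0534), and 2 had an unadjusted p under 0.05, against 8.78% of all tested. AT4G14090 measured 5.85 and 6.34 after DEX, against 7.27 and 7.27 after mock. Its change of -1.17 ± 0.19 (SE) was close in size to that of DFR and missed the threshold (adjusted p = 0.0534). It passed with equal array medians (limma adjusted p = 0.0416), with the length trend removed (0.00676) and with a replicate block (3.13e-07). In those settings 50, 56 and 237 probe sets were called lower, against 40 as deposited. With quantile normalization it did not pass (0.0591). The p-value with the block draws mainly on the spread pooled over probe sets, not on this gene's own arrays. Leaving out each array gave changes of -1.41 to -0.93.

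The glycosyltransferase gene UF3GT, which acts on anthocyanins downstream of DFR, measured 6.49 and 6.52 after DEX, against 7.17 and 7.00 after mock. Its change was -0.58 ± 0.16 (SE; limma adjusted p = 0.252), and its groups did not overlap. UF3GT passed in none of the settings run on it that kept all arrays, and leaving out each array gave changes of -0.66 to -0.50. CHIL, a chalcone isomerase-like gene of the early pathway, was at -0.35 ± 0.17 (adjusted p = 0.62), also without overlap. Such a lack of overlap with DEX lower held for 19.8% of all tested probe sets. AT5MAT was at -0.26 ± 0.18 (adjusted p = 0.753), with overlapping groups. UGT78D2 and BAN, a reductase of proanthocyanidin synthesis in seed coats, had the smallest changes, -0.088 ± 0.18 and -0.032 ± 0.15 (SE), with overlapping groups. Of 18 regulators of the pathway listed, 0 had a tested probe set of their own.

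Glucosinolates, the sulphur-containing defence compounds of the Brassicaceae, are made by enzymes whose genes are known targets of MYC2, MYC3 and MYC4. Of 36 genes listed 4 were tested and 0 passed (limma, smallest adjusted p = 0.3). Of the 4, 3 had an unadjusted p under 0.05, against 8.78% of all tested probe sets. BCAT4, which starts the chain elongation of methionine, measured 11.47 and 11.32 after DEX, against 12.04 and 11.92 after mock. UGT74B1, a glucosyltransferase of the core pathway, measured 10.25 and 10.16 after DEX, against 10.82 and 10.65 after mock. Neither gene's groups overlapped, and the changes were -0.58 ± 0.17 and -0.53 ± 0.19 (SE; adjusted p = 0.3 and 0.432). AT2G31790 had a change of -0.59 ± 0.20 (adjusted p = 0.391), also without overlap. Groups did not overlap with DEX lower in 19.8% of all tested probe sets. AOP3 was at 0.059 ± 0.13 (adjusted p = 0.951). BCAT4, UGT74B1 and AT2G31790 passed in none of the settings run on them that kept all arrays. Leaving out each array gave changes of -0.66 to -0.51 for BCAT4, -0.61 to -0.44 for UGT74B1 and -0.72 to -0.47 for AT2G31790.

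JAL23 has relatives among the lectins that bind PYK10, a beta-glucosidase stored in ER bodies, which are defence compartments of the Brassicaceae. Of 18 genes listed for the ER body and the PYK10 complex 6 were tested, 5 with positive changes and a median of 0.22. Of the 6, 0 passed (limma, smallest adjusted p = 0.413), and 1 had an unadjusted p under 0.05, against 8.78% of all tested probe sets. JAL33 measured 8.59 and 8.53 after DEX, against 8.11 and 7.92 after mock, a change of 0.55 ± 0.19 (SE; adjusted p = 0.413). JAL22, which lies 2 genes from JAL23 on the chromosome, measured 7.20 and 7.06 after DEX, against 7.05 and 6.71 after mock, a change of 0.25 ± 0.18 (adjusted p = 0.766). JAL34 was at -0.027 ± 0.25 (adjusted p = 0.995). The 3 tested relatives thus had changes of -0.027 to 0.55, beside -1.82 for JAL23. Both DEX values lay above both mock values for JAL33 and JAL22, as they did for 18.1% of all tested probe sets. NAI1, a bHLH factor of ER body formation, and NAI2, an ER body protein, had changes of 0.19 ± 0.13 and 0.24 ± 0.20 (adjusted p = 0.748 and 0.8).

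**Figure D4:**
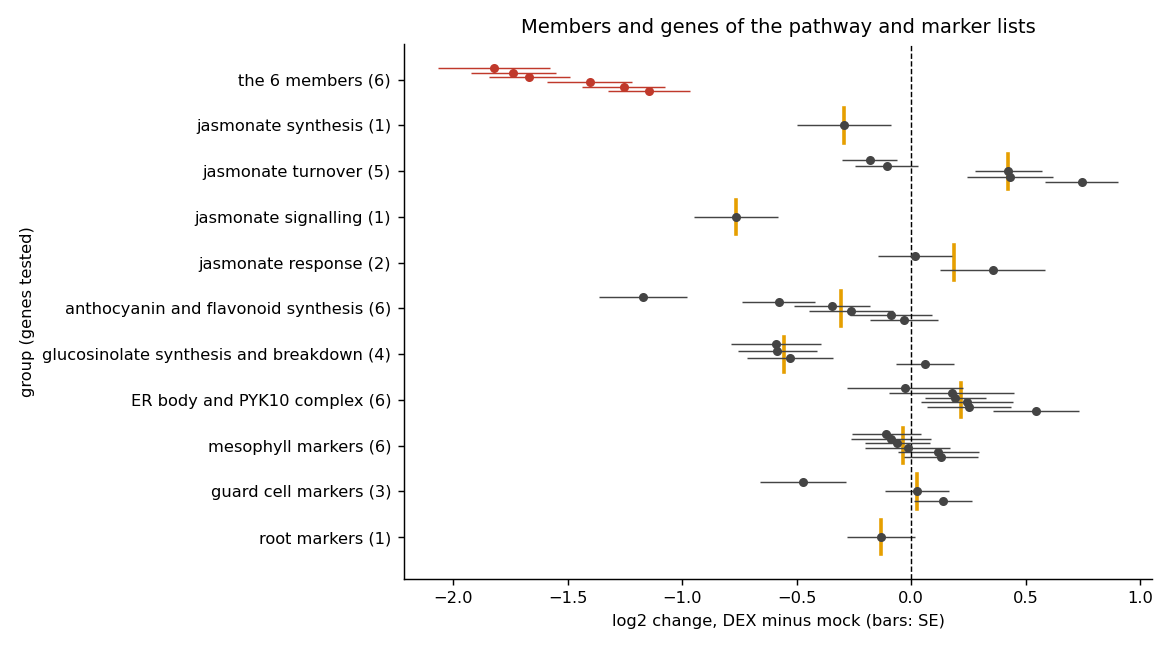
Log2 change, DEX minus mock, with SE, of the 6 members (red) and of the tested genes of each list (dark grey), with the median of each list in orange. The members, chosen for their fall, lie between -1.82 and -1.15, and AT4G14090 at -1.17 is the only listed gene in that range.

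Over the 8 pathway lists together, 25 genes were tested, 14 had negative changes and the median was -0.032, against -0.012 over all tested probe sets. Without overlap of the groups, 9 of the 25 were lower and 6 higher after DEX, against 19.8% and 18.1% of all tested probe sets. With the tissue markers added, 0 of 35 passed (limma), and 10 had an unadjusted p under 0.05, against 8.78% of all tested probe sets. Among the markers, the guard cell regulator FMA, also known as FAMA, was at 5.97 and 6.26 after DEX, against 6.78 and 6.39 after mock. Its change was -0.47 ± 0.19 (SE, limma adjusted p = 0.511), and leaving out each array gave -0.67 to -0.28. SPCH and MUTE had changes of 0.027 and 0.14. What part of the members' falls could go with cell composition was not tested.

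Genes next to the members on the chromosome were taken by position, up to 4 protein-coding genes on each side in the RefSeq annotation. Of the 48 such positions 14 had a tested probe set with a single annotated gene, and 0 passed (limma). Their changes ran from -0.29 to 0.79 with a median of -0.0052, and 7 were negative. The largest was that of AT5G42830, 4 genes from DFR, which measured 6.91 and 7.25 after DEX, against 6.47 and 6.11 after mock (0.79 ± 0.19, adjusted p = 0.199). MYC4 had 5 tested neighbours, with changes of -0.22 to 0.056. The lipase genes beside AT1G54020 and the genes immediately beside AT3G28220 were not analysed here.

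**Figure D5:**
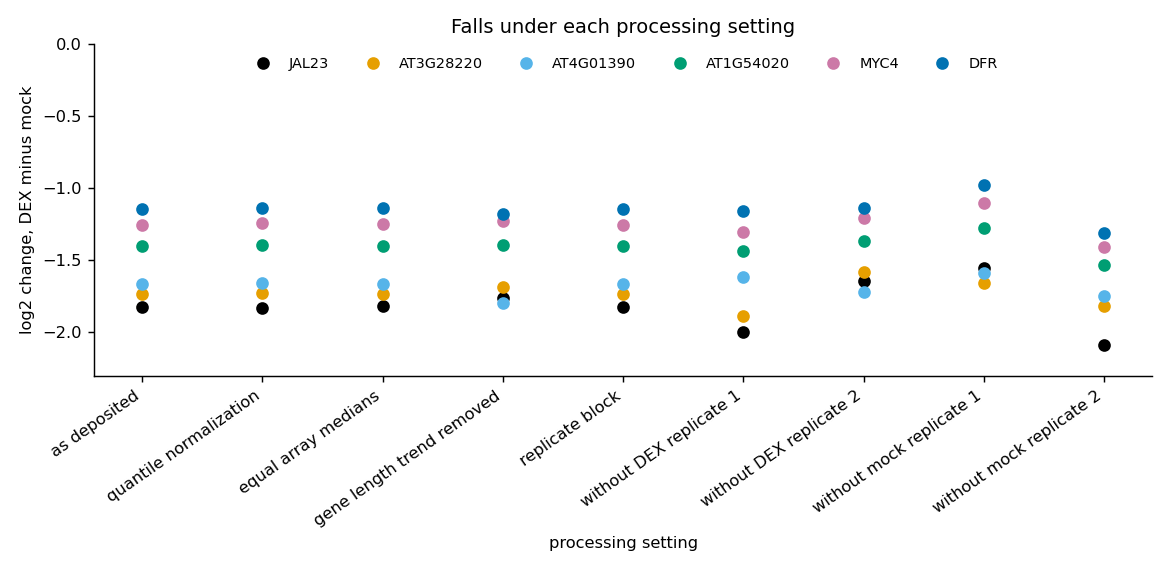
Log2 change, DEX minus mock, of the 6 genes as deposited and under the 8 alternatives run on them. The replicate block leaves the changes as deposited. AT1G54020, MYC4 and DFR keep the last 3 places, in this order, throughout, while the first 3 places change with the length trend removed and without DEX replicate 2 or mock replicate 1.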

How the data were processed

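The deposited table holds log2 expression values, 1 per probe set and array, made by the authors with GCRMA per the submitters' processing notes. GCRMA corrects background by probe sequence, normalizes by quantiles and combines the probes of a set. The sources used here give neither its version nor its settings. The log2 scale was inferred from GCRMA and the range of the values, and array medians were 6.51 to 6.55. GCRMA can compress differences near the floor.

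Of 22810 probe sets, 64 controls and 2863 with fewer than 2 arrays at a log2 value of 4 were left out. The other 19883 were fitted in R 4.3.3 with limma 3.58.1 (lmFit, eBayes with intensity trend, DEX minus mock, no covariate, two-sided), with Benjamini-Hochberg adjustment over all of them. SEs come from that fit and draw on the pooled spread, since 2 arrays per group limit the precision.

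Gene names came from the platform annotation, which pairs 13513 probe sets with a single gene, updated through RefSeq (TAIR10.1). Members and lists were chosen with earlier results of these data known. Named genes were all members, and from each list any gene that passed plus the 4 with the largest changes. The 3 genes with profiles nearest to MYC4 and the nearest to each other member were also named. UGT78D2, BAN, AT5G42830 and the chromosomal neighbours were named beyond that rule, after their values were seen. Family lists were planned from product descriptions, which the RefSeq table does not hold. Taken by symbol and synonym, 3 of 7 other jacalin lectins were tested (0 passed), 0 of 5 TRAF or MATH genes and 0 of 9 GDSL genes. ORS1 itself was not analysed here, since no annotated probe set names it.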

Additional observations from a re-analysis of the deposited data

How the results depend on the processing

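The falls of all 6 members kept their direction under the 8 alternatives run on them, which their separated groups fix when an array is left out. Their calls did not all hold: 5 of 6 remained called with no filter and without DEX replicate 1, 4 without an intensity trend and 3 without DEX replicate 2. DFR was lost in all 4 of these settings, MYC4 in the last 2 and AT1G54020 in the last. With the gene length trend removed AT4G01390 moved from -1.67 to -1.80. That shift was larger than its pooled replicate SD of 0.093, but smaller than the 0.16 between its mock replicates. By construction, it is the length trend that this setting subtracts at 1396 bases. Leaving out each array gave -2.09 to -1.56 for JAL23, -1.89 to -1.59 for AT3G28220, -1.75 to -1.59 for AT4G01390, -1.53 to -1.28 for AT1G54020, -1.41 to -1.10 for MYC4 and -1.31 to -0.98 for DFR.

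Counts over all probe sets moved more. Against 40 lower and 49 higher, there were 24 and 27 without an intensity trend, 81 and 107 at an adjusted p under 0.1, and 80 higher with robust eBayes. Leaving out 1 array gave 50 to 1388 lower and 112 to 1803 higher, with the highest counts without mock replicate 2. A replicate block gave 237 lower and 438 higher, and the same log2 changes. With 4 arrays the block leaves little of each gene's own spread, so its p-values draw mainly on the pooled spread. The labels do not say that a replicate number marks a shared batch, and the differences between replicates correlated at 0.11 across probe sets between the groups, so the numbers were not taken to pair the samples.

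Of the 35 listed genes 0 passed in either direction as deposited. With equal array medians 1 passed as lower, with the length trend removed 2 as lower and 1 as higher, and with the replicate block 2 as lower (AT4G14090 and MYC3) and 1 as higher (AT2G38240). Leaving out 1 array gave 0 to 7 lower and 0 to 2 higher, and the largest counts came without mock replicate 2, where the spread rests on the DEX pair alone. The table gives no background per probe set, so how far it limits dim genes such as PDF1.2 and THI2.1 was not tested.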
